A study of Mus musculus with 36 samples.

Results

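The SOX proteins are transcription factors that bind DNA through a shared high-mobility-group (HMG) domain. Described here are the transcripts of 10 Sox genes known from neural progenitors, chosen by name: Sox1, Sox2, Sox3, Sox4, Sox5, Sox6, Sox8, Sox9, Sox11 and Sox21. They are 10 of the 51734 gene symbols in the count table, and all 10 were among the 20511 genes with enough counts to be tested. The study compared mouse E14 embryonic stem cells (ESC) with neural progenitor cells (NPC) made from them with retinoic acid, by RNA-seq of polyadenylated RNA.

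The 18 libraries used here form 6 groups of 3: WT, dCD and MLL2dTAG, each as ESC and as NPC. MLL2, MLL3 and MLL4 are enzymes that methylate histone H3 on lysine 4. In dCD the MLL3 and MLL4 proteins lack catalytic activity, and in MLL2dTAG the MLL2 protein carries a tag through which the small molecule dTAG-13 directs it to degradation. The labels give dTAG-13, at 2 µM, for every group, WT included. For NPC it was given from day 1 and the cells were harvested on day 4. For ESC the length of treatment is not given. Each genotype is its own cell line, so genotype and line cannot be told apart. The labels do not say that replicates came from separate cultures, so p-values measure the spread between these samples, which may be technical. In bulk RNA, fewer cells of a type and less RNA per cell cannot be told apart.

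The mouse SOX family is divided into subgroups by sequence. SOXB1 (Sox1, Sox2, Sox3) keeps neural cells in the progenitor state, Sox2 also being a core factor of pluripotency, while SOXB2 (Sox21) acts as a repressor that favours differentiation. SOXC (Sox4, Sox11) is known from immature neurons and their precursors, SOXD (Sox5, Sox6) lacks a transactivation domain and works beside other SOX factors, and SOXE (Sox8, Sox9) is known from neural stem cells, glia, neural crest and cartilage.

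MLL2 is known for methylating promoters rich in CpG, and MLL3 and MLL4 for methylating enhancers, so the bases before 4 of the transcription starts are shown with each CpG in capitals. They are Sox2, Sox21, Sox8 and Sox4, 4 genes whose levels differed between genotypes. The sequences are from RefSeq on GRCm38.p6, 5′ to 3′ on the gene's strand, and end at the base before the transcript as RefSeq or, for Sox4, GENCODE M21 starts it. Sox2 is at chr3:34649745-34649994 on the plus strand, Sox21 at chr14:118237031-118237280 on the minus strand, Sox8 at chr17:25570687-25570936 on the minus strand and Sox4 at chr13:28953714-28953949 on the minus strand.
Sox2: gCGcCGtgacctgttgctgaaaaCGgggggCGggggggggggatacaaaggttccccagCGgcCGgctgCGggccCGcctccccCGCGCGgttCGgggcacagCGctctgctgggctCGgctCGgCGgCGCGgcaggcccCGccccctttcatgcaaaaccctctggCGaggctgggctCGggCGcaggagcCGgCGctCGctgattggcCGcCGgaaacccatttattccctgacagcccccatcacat
Sox21: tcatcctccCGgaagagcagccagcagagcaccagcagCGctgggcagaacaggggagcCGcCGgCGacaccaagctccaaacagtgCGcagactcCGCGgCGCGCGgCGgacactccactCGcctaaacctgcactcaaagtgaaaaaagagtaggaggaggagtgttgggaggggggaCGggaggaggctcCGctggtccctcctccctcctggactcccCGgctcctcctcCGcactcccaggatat
Sox8: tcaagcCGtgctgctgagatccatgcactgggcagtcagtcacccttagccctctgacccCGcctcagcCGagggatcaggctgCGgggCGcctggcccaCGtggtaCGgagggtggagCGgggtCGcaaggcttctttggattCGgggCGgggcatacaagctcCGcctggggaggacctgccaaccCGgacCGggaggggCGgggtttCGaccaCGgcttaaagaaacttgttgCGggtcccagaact
Sox4: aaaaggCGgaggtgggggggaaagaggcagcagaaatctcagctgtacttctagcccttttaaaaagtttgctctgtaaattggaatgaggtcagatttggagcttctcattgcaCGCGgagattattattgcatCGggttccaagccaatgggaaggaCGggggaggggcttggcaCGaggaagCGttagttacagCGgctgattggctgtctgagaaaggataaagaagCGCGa
The 250 bases before Sox2 hold 27 CpG (CG, which reads the same on both strands), those before Sox21 hold 17 and those before Sox8 hold 18. The 236 bases before Sox4 hold 10.

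Over a fixed window of 300 bases, from 250 before to 50 after the start, 8 of the 10 genes had a RefSeq entry. Sox1 held 37 CpG, Sox2 27, Sox21 22, Sox8 and Sox11 21 each, Sox4 12 and Sox5 3, while the 6 listed starts of Sox6 held 2 to 13. The median over 32851 such windows was 7. Sox1 had more CpG than 94.4% of all windows, Sox21 more than 76.9%, and Sox5 more than 23.3%. No entry was matched for Sox3 and Sox9.

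Library totals ran from 19.4 to 46.04 M counts, and replicates correlated at 0.987 to 0.994 over genes. Replicate 2 of WT ESC stood somewhat apart: the chi-square per degree of freedom between replicates reached 10.53 with it and at most 4.43 among the other pairs. Values below are CPM, the usual count scaled to a common library total, and changes are log2 fold changes with their standard error (SE). The test was the edgeR quasi-likelihood F test over all genes, and a gene was called at a Benjamini-Hochberg adjusted p under 0.05. Among markers fixed for the cell types, all 8 neural progenitor genes rose from WT ESC to WT NPC, their summed level going from 129 to 142 CPM to between 419 and 429 CPM. All 7 pluripotency markers fell, their sum going from between 2436 and 2560 CPM to between 28.6 and 29.9 CPM, with Dppa3 at 0 counts in all 3 WT NPC libraries. Markers of other cells changed too, where 79.5% of all genes were called. All 5 endoderm markers rose, their sum going from between 13.5 and 14.7 CPM to between 199 and 207 CPM. Of 5 neural crest markers 4 rose and 1 fell, and of 4 endothelium markers 2 rose and 2 fell. The 5 mesenchyme markers, 2 called higher and 3 lower, summed to 413 to 517 CPM in WT ESC and 402 to 416 CPM in WT NPC.

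In WT cells the Sox genes moved apart on differentiation. Sox2 fell 21.6-fold, Sox1 showed no detectable change, and Sox4, Sox5, Sox6, Sox9 and Sox11 rose 7.07-fold to 77.3-fold. Of the 10 genes, 8 were called, 6 higher and 2 lower, against 79.5% of all genes tested. A change of at least 2-fold was found for 6 of the 10, against 43.7% of all genes. The 6 that were higher in NPC did not include Sox1, Sox2, Sox8 or Sox21.

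**Figure D1:**
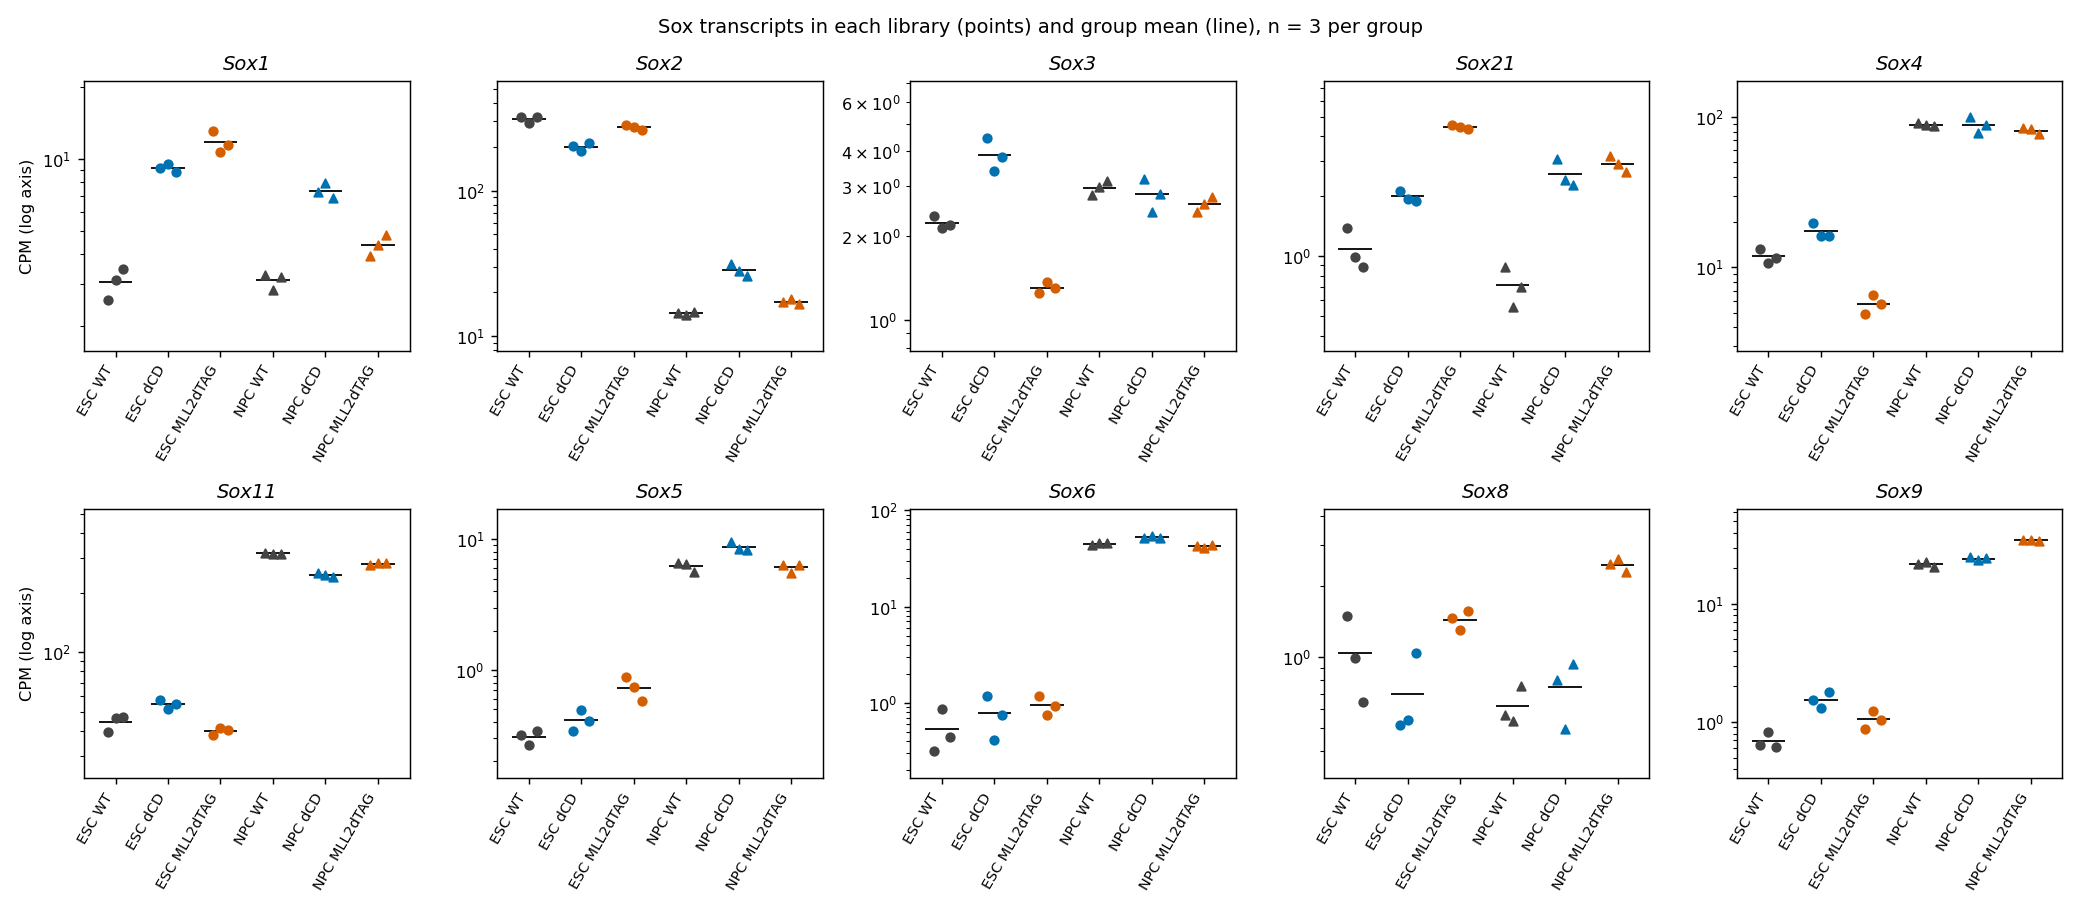
Level of each of the 10 Sox transcripts in CPM (log axis) in each library of the 6 groups; points are libraries (circles ESC, triangles NPC) and lines are means of 3. Sox2 is highest in ESC, Sox4, Sox5, Sox6, Sox9 and Sox11 are highest in NPC, and the WT libraries of Sox1 sit below every dCD and MLL2dTAG library.

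Of the SOXB1 genes, Sox2 stood at 319, 292 and 322 CPM in the 3 WT ESC libraries and at 14.5, 14.0 and 14.7 CPM in WT NPC. The groups were far apart, and the log2 change was −4.43 ± 0.06 (SE; edgeR adjusted p = 4.87e-37). Sox1, the SOXB1 gene tied most closely to the neural plate, stood at 2.56, 3.12 and 3.47 CPM in WT ESC and at 3.26, 2.82 and 3.21 CPM in WT NPC. Its libraries overlapped, and the 95% interval of the log2 change was −0.30 to 0.29. Sox3 was a little higher in NPC, at 2.97 ± 0.17 CPM (SD, n = 3) against 2.21 ± 0.12 CPM. Its log2 change of 0.43 ± 0.17 (edgeR adjusted p = 0.0239) dropped to 0.12 (adjusted p = 0.505) with offsets for GC content and length, and lost the call without WT ESC replicate 2, WT ESC replicate 3 or WT NPC replicate 3 (adjusted p 0.0567 to 0.0736). Sox21, the SOXB2 gene, stood at 1.38, 0.995 and 0.884 CPM in WT ESC and at 0.886, 0.559 and 0.698 CPM in WT NPC, with 74 counts in all behind the NPC values. These groups overlapped, and the log2 change of −0.58 ± 0.26 (edgeR adjusted p = 0.0414) was lost in 4 of 8 other settings (−0.47 to −0.55) and without WT ESC replicate 1 or 2, MLL2dTAG ESC replicate 3, or WT NPC replicate 2 or 3 (−0.41 to −0.62).

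Sox11 and Sox4, of SOXC, rose in every WT NPC library. Sox11 stood at 39.6, 46.2 and 46.9 CPM in WT ESC and at 318, 312 and 315 CPM in WT NPC, a log2 change of 2.82 ± 0.05 (edgeR adjusted p = 2.29e-34). Sox4 went from 13.3, 10.7 and 11.5 CPM to 91.5, 87.8 and 86.6 CPM, a log2 change of 2.92 ± 0.08. On a per-length scale (CPM per kb of exon), Sox11 made up 68.2% ± 4.4 (SD, n = 3) of the sum of Sox4 and Sox11 in WT ESC. In WT NPC its share was much the same, 67.2% ± 0.49, while the sum went from 7.79 to 56.4 CPM per kb. Sox12, the remaining SOXC gene, is not in this sum. It stood at 19.3 CPM per kb in WT ESC and 41.6 in WT NPC.

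Sox6 and Sox5, of SOXD, went from a trace to a clear level. Sox6 had 0.319, 0.862 and 0.442 CPM in WT ESC, 45 counts in all, and 43.0, 45.4 and 45.3 CPM in WT NPC. Its log2 change of 6.27 ± 0.14 was the largest of the 10 genes. Sox5 went from 0.308 ± 0.039 to 6.21 ± 0.55 CPM, a log2 change of 4.32 ± 0.22. In WT NPC Sox6 made up 87.4% ± 1.2 of the sum of Sox5 and Sox6 per length. Sox13, the remaining SOXD gene, is not in this sum and stood at 4.38 CPM per kb there, above Sox6 at 3.01.

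Of SOXE, Sox9 and Sox8 did not move together. Sox9, a factor of neural stem cells and of cartilage, went from 0.639, 0.829 and 0.612 CPM in WT ESC to 21.9, 22.8 and 20.4 CPM in WT NPC, a log2 change of 4.94 ± 0.13 (edgeR adjusted p = 3.28e-28). Sox8 stood at 1.49, 0.995 and 0.646 CPM in WT ESC and at 0.570, 0.533 and 0.754 CPM in WT NPC. Its groups overlapped, and it missed the threshold (log2 −0.69 ± 0.33, edgeR adjusted p = 0.0525), which it passed with DESeq2 and without any of 4 single libraries (WT ESC replicate 3, WT NPC replicate 3, dCD ESC replicate 3 or dCD NPC replicate 2; −0.69 to −0.96).

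Per length, Sox2 led the 10 genes in WT ESC at 151 CPM per kb, followed by Sox11 at 5.32 and Sox4 at 2.47. Then came Sox3 at 1.07, Sox1 at 0.631, Sox8 at 0.335, Sox21 at 0.286, Sox9 at 0.168, Sox6 at 0.0365 and Sox5 at 0.0214 CPM per kb. The libraries of Sox8 and Sox21 overlapped, as did those of Sox6 and Sox5. In WT NPC Sox11 led at 37.9 CPM per kb, followed by Sox4 at 18.5, Sox2 at 6.99, Sox9 at 5.24 and Sox6 at 3.01. Below them were Sox3 at 1.44, Sox1 at 0.641, Sox5 at 0.432, Sox8 at 0.198 and Sox21 at 0.188 CPM per kb, and of these neighbours only Sox8 and Sox21 overlapped. Sox2 was thus the third of the 10 in WT NPC and its distance to Sox9 was small but without overlap.

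**Figure D2:**
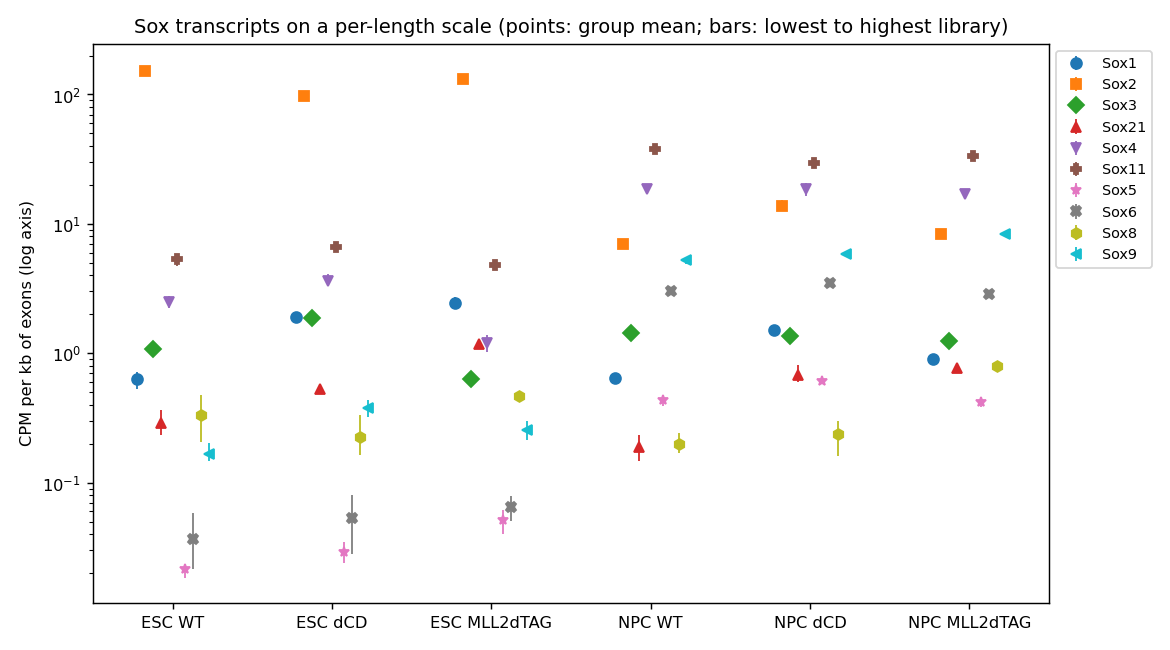
Level of the 10 Sox transcripts per length (CPM per kb of exon, log axis) in the 6 groups; points are means of 3 libraries and bars run from the lowest to the highest library. Sox2 stands alone at the top in ESC (97.2 to 151 CPM per kb), and in NPC Sox11 and Sox4 are above it in all 3 genotypes.

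In dCD cells against WT, Sox1 and Sox21 were higher at both stages, and Sox2 was lower in ESC and higher in NPC. In ESC 7 of the 10 genes were called, 6 higher and 1 lower, against 48.3% of all genes. In NPC 6 were called, 5 higher and 1 lower, against 53.5% of all genes. The median log2 change of the 10 was 0.50 in ESC and 0.24 in NPC, where the median over all genes was 0.02 and −0.02. A change of at least 2-fold was seen for 2 of the 10 at each stage, against 9.51% of all genes in ESC and 11.9% in NPC.

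Beside these values, the 8 neural progenitor markers summed to between 746 and 791 CPM in dCD NPC, 6 called higher and none lower than in WT NPC, and the 5 neural crest markers to between 136 and 142 CPM against 68.4 to 74.3 CPM, 3 called higher. The 4 glial markers summed to between 22.7 and 24.7 CPM against 47.9 to 49.5 CPM, 2 called lower. In dCD ESC the 5 mesenchyme markers summed to between 641 and 724 CPM against 413 to 517 CPM in WT ESC, all 5 called higher, and 5 of 8 neural progenitor markers were called higher and 1 lower. Their part in the Sox values was not tested.

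Sox2 stood at 201, 186 and 213 CPM in dCD ESC, below the 292 to 322 CPM of WT. In dCD NPC it stood at 31.2, 27.9 and 25.9 CPM, above the 14.0 to 14.7 CPM of WT. The log2 change was −0.63 ± 0.05 in ESC (edgeR adjusted p = 1.42e-13) and 0.98 ± 0.07 in NPC (adjusted p = 4.38e-15), opposite in direction. The test of the difference, the dCD change in NPC minus that in ESC, gave 1.61 ± 0.08 (edgeR adjusted p = 4.79e-18). Sox1 was higher in dCD at both stages, at 9.13, 9.49 and 8.84 CPM in ESC and 7.24, 7.92 and 6.83 CPM in NPC, with no overlap with WT. Its changes were 1.56 ± 0.13 and 1.25 ± 0.12, and the 95% interval of their difference was −0.69 to 0.06. Sox3 rose in dCD ESC (0.81 ± 0.17) to 4.44, 3.40 and 3.80 CPM, and in dCD NPC its 95% interval was −0.41 to 0.25.

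Sox21 rose in dCD at both stages. It stood at 2.13, 1.95 and 1.90 CPM in dCD ESC (0.91 ± 0.23) and at 3.07, 2.40 and 2.29 CPM in dCD NPC (1.86 ± 0.22, edgeR adjusted p = 3.02e-09), above every WT library of its stage. The larger change in NPC was called (difference 0.95 ± 0.32, edgeR adjusted p = 0.0162), but not without WT ESC replicate 1 or WT NPC replicate 2 (adjusted p 0.0655 and 0.0625).

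Sox11 and Sox4, of SOXC, rose in dCD ESC and did not in dCD NPC. Sox11 stood at 57.6, 51.4 and 54.9 CPM in dCD ESC, above WT (0.29 ± 0.05), and at 251, 245 and 240.0 CPM in dCD NPC, below WT (−0.36 ± 0.04, edgeR adjusted p = 1.35e-09). The difference between its changes was −0.65 ± 0.06. Sox4 rose by 0.57 ± 0.10 in ESC, to 19.6, 16.2 and 16.3 CPM, and had a log2 change of −0.00 ± 0.06 in NPC (95% interval −0.13 to 0.13), with a called difference of −0.57 ± 0.12.

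Among SOXD and SOXE, Sox9 rose in dCD ESC (1.15 ± 0.22), to 1.54, 1.33 and 1.79 CPM. In dCD NPC Sox9 stood at 24.9, 23.4 and 24.2 CPM, above WT without overlap, with a log2 change of 0.16 ± 0.07 that missed the threshold (edgeR adjusted p = 0.0547) and passed it in 4 of 8 other settings. Sox5 and Sox6 rose in dCD NPC, to 8.71 ± 0.72 CPM (0.49 ± 0.12) and 52.0 ± 1.2 CPM (0.22 ± 0.07). In dCD ESC neither was called, at 31 and 58 counts over 3 libraries. Without WT ESC replicate 2, Sox6 was called higher there (0.98 ± 0.39, edgeR adjusted p = 0.0352). Sox8 was not called at either stage (95% intervals −1.19 to 0.19 in ESC and −0.41 to 0.92 in NPC).

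**Figure D3:**
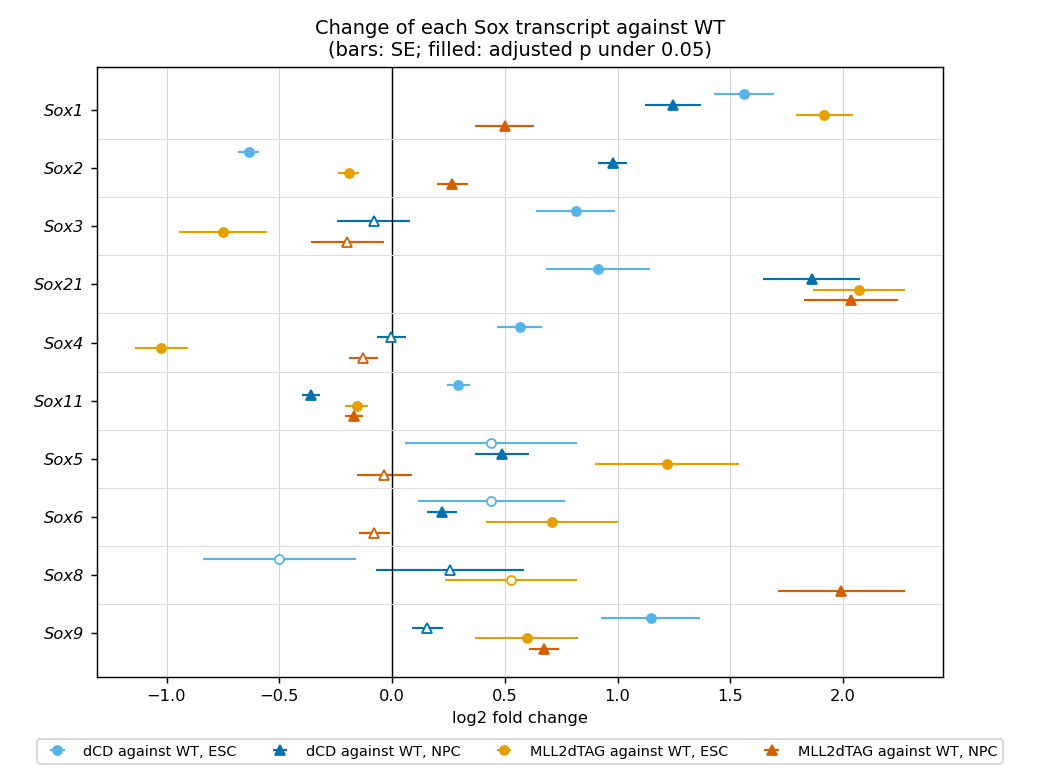
Log2 fold change of the 10 Sox transcripts against WT in dCD and MLL2dTAG, in ESC (circles) and NPC (triangles); bars are SE and filled symbols have an edgeR adjusted p under 0.05. Sox2 in dCD lies at −0.63 in ESC and 0.98 in NPC, and Sox21 lies right of 0 in all 4 comparisons, which share the WT libraries of each stage.

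In MLL2dTAG cells against WT, Sox1 and Sox21 were higher at both stages, Sox3 and Sox4 were lower in ESC, and Sox8 and Sox9 were higher in NPC. In ESC 9 of the 10 genes were called, 5 higher and 4 lower, against 56.9% of all genes. In NPC 6 were called, 5 higher and 1 lower, against 61.7% of all genes. The median log2 change of the 10 was 0.56 in ESC and 0.12 in NPC, with all genes at −0.00 and 0.03. At least 2-fold were 4 of the 10 in ESC, against 16.8% of all genes, and 2 in NPC, against 19.6%. These comparisons use the same WT libraries as those of dCD.

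Beside these values, MLL2dTAG NPC differed from WT NPC in markers of other cells. The 7 pluripotency markers summed to between 151 and 152 CPM against 28.6 to 29.9 CPM in WT, and 6 of 7 were called higher, with Dppa3 at 0 counts in both groups. The 5 endoderm markers summed to between 497 and 510 CPM against 199 to 207 CPM, all 5 called higher, and the 4 endothelium markers to between 217 and 223 CPM against 61.8 to 64.3 CPM, all 4 called higher. The sum of the 5 neural crest markers was 122 to 124 CPM against 68.4 to 74.3 CPM, with 4 called higher. The 8 neural progenitor markers summed to between 573 and 585 CPM against 419 to 429 CPM, 3 called higher and 2 lower. The 4 glial markers summed to between 17.9 and 19.1 CPM against 47.9 to 49.5 CPM, 2 called lower, and the 5 mesenchyme markers to between 322 and 327 CPM against 402 to 416 CPM, 2 called higher and 3 lower. No marker of these lists other than Dppa3 was at 0 in NPC. In MLL2dTAG ESC the pluripotency markers summed to between 3151 and 3245 CPM against 2436 to 2560 CPM, 6 of 7 called higher, and all 5 mesenchyme markers were called higher. The part of these cells in the Sox values was likewise not tested.

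Sox21 stood at 4.54, 4.47 and 4.33 CPM in MLL2dTAG ESC and at 3.17, 2.91 and 2.66 CPM in MLL2dTAG NPC. All 6 libraries were above every WT library of both stages, with log2 changes of 2.07 ± 0.20 (edgeR adjusted p = 6.66e-11) and 2.04 ± 0.21 (adjusted p = 1.56e-10). The 95% interval of the difference between its changes was −0.70 to 0.63. Sox1 was also higher at both stages, at 13.04, 10.7 and 11.5 CPM in ESC (1.92 ± 0.13) and 3.92, 4.37 and 4.80 CPM in NPC (0.50 ± 0.13). The smaller change in NPC was called as a difference (−1.42 ± 0.18, edgeR adjusted p = 4.62e-08).

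The other SOXB1 genes changed less. Sox2 stood at 282, 272 and 262 CPM in ESC, slightly below WT (−0.19 ± 0.05), and at 17.1, 17.95 and 16.8 CPM in NPC, slightly above it (0.27 ± 0.07), with a called difference of 0.46 ± 0.08. Sox3 fell in ESC to 1.25, 1.37 and 1.31 CPM, below every WT library (−0.75 ± 0.20, edgeR adjusted p = 0.00128). In NPC Sox3 stood at 2.59 ± 0.15 CPM and was not called (95% interval −0.52 to 0.13).

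Sox4 fell in MLL2dTAG ESC to 4.87, 6.58 and 5.69 CPM, 2.03-fold below WT (log2 −1.02 ± 0.12, edgeR adjusted p = 1.65e-09). In NPC it stood at 83.8, 82.7 and 76.9 CPM, and the log2 change of −0.13 ± 0.06 missed the threshold (adjusted p = 0.0816) but passed it in 4 of 8 other settings. The difference of 0.89 ± 0.13 was called. Sox11 had a small fall in NPC (−0.17 ± 0.04), to between 277 and 283 CPM. Its log2 change in ESC was −0.16 ± 0.05 (edgeR adjusted p = 0.00778), with libraries that overlapped WT, and was −0.10 without the filter on low counts or with offsets for GC content and length (adjusted p = 0.124 and 0.0603). That call was also lost without WT ESC replicate 3 (−0.11) or MLL2dTAG ESC replicate 1 (−0.13).

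Sox8 stood at 2.49, 2.63 and 2.30 CPM in MLL2dTAG NPC, above the 0.533 to 0.754 CPM of WT NPC, a log2 change of 1.99 ± 0.28 (edgeR adjusted p = 1.33e-07). In ESC it stood at 1.47, 1.30 and 1.57 CPM, overlapped WT and was not called (0.53 ± 0.29; called at 0.82 without WT ESC replicate 1), and the difference of 1.46 ± 0.41 was called (edgeR adjusted p = 0.00334). Sox9 rose in NPC to 34.8, 34.8 and 34.4 CPM, above the 20.4 to 22.8 CPM of WT (0.68 ± 0.07, edgeR adjusted p = 5.37e-11). Its change in ESC, 0.60 ± 0.23 from 0.693 to 1.06 CPM, was called but lost with halved counts, in a fit of the compared groups alone and without WT ESC replicate 1 or 3 or MLL2dTAG ESC replicate 2 (0.47 to 0.59).

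For Sox5 and Sox6 the calls were in ESC, on few counts. Sox5 stood at 0.879, 0.745 and 0.574 CPM against 0.265 to 0.340 CPM in WT (1.22 ± 0.32, edgeR adjusted p = 0.00139), on 70 and 24 counts in all. Sox6 overlapped WT (0.71 ± 0.29, edgeR adjusted p = 0.0379), and its change was 1.25 without WT ESC replicate 2. Its call was lost with halved counts and in a fit of the compared groups alone (edgeR adjusted p = 0.0974 and 0.107). The call was also lost without WT ESC replicates 1 or 3 or MLL2dTAG replicates 1 or 3. In NPC neither was called, with 95% intervals of −0.29 to 0.22 for Sox5 and −0.22 to 0.06 for Sox6, although Sox6 passed the threshold in 2 of 8 other settings (−0.16 and −0.13).

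The lines with altered enzymes were also compared directly. In ESC 9 of the 10 genes differed between MLL2dTAG and dCD, 5 higher and 4 lower in MLL2dTAG, against 47.2% of all genes. Sox4 and Sox3 lay lower in MLL2dTAG ESC by −1.59 ± 0.11 and −1.56 ± 0.18 on the log2 scale (edgeR adjusted p = 1.05e-14 and 5.15e-09), while Sox21 and Sox8 lay higher by 1.16 ± 0.18 and 1.03 ± 0.31. Smaller ESC differences were called for Sox1 (0.36), Sox2 (0.44), Sox5 (0.78), Sox9 (−0.55) and Sox11 (−0.45). The call of Sox1 was lost without MLL2dTAG replicate 1 (0.28). That of Sox5 was lost without dCD replicate 1 or 3 or MLL2dTAG replicate 1 or 2 (0.65 to 0.77). That of Sox9 was lost without dCD replicate 3 or MLL2dTAG replicate 1 (−0.43 and −0.45). The calls of Sox5 and Sox9 were also lost in other settings (edgeR adjusted p 0.0714 to 0.139). These were no filter on low counts, halved counts and a fit of the compared groups alone. In NPC 7 of the 10 differed, 3 higher and 4 lower in MLL2dTAG, against 55.9% of all genes. Sox8 was higher in MLL2dTAG NPC (1.73 ± 0.27, edgeR adjusted p = 1.38e-06), as was Sox9 (0.52 ± 0.07), and Sox1 and Sox2 were lower (−0.75 ± 0.12 and −0.71 ± 0.06). Also called in NPC were Sox5 (−0.52), Sox6 (−0.30) and Sox11 (0.19). Sox21, which was above WT in both lines, was not called between them in NPC (95% interval −0.18 to 0.53).

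The difference between the stages was called for 6 of the 10 genes in dCD, with the NPC change above the ESC change for 2 and below it for 4, against 42.9% of all genes. In MLL2dTAG it was called for 6, 3 each way, against 49.0% of all genes. Sox2 and Sox4 were called in both. The Sox2 difference was 1.61 in dCD and 0.46 in MLL2dTAG, and the Sox4 difference was −0.57 in dCD and 0.89 in MLL2dTAG. Both use the same WT libraries.

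Seen as differentiation within each line, the rises of Sox4, Sox11, Sox5, Sox6 and Sox9 were called in all 3 genotypes. In dCD 8 of the 10 genes were called, 5 higher and 3 lower, against 77.6% of all genes, and in MLL2dTAG all 10, 7 higher and 3 lower, against 78.2%. Sox2 fell 7.07-fold in dCD and 15.7-fold in MLL2dTAG, where WT fell 21.6-fold. Sox1 fell by 1.42 ± 0.11 on the log2 scale in MLL2dTAG (edgeR adjusted p = 6.52e-14), where its WT change was −0.00 ± 0.15. In dCD the smaller changes of Sox1 (−0.32 ± 0.11) and Sox3 (−0.47 ± 0.16) lost their calls without single libraries, NPC dCD replicate 3 for Sox1 and ESC dCD replicate 1 or NPC dCD replicate 2 for Sox3. Both calls were also lost without the filter on low counts, and that of Sox1 with library totals alone. Sox4 rose 14.1-fold in MLL2dTAG, 7.58-fold in WT and 5.11-fold in dCD, and its NPC means were 81.1, 88.6 and 88.5 CPM in the same order. Sox8 rose in MLL2dTAG (0.77 ± 0.25, edgeR adjusted p = 0.0062) and was called in neither of the other genotypes.

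**Figure D4:**
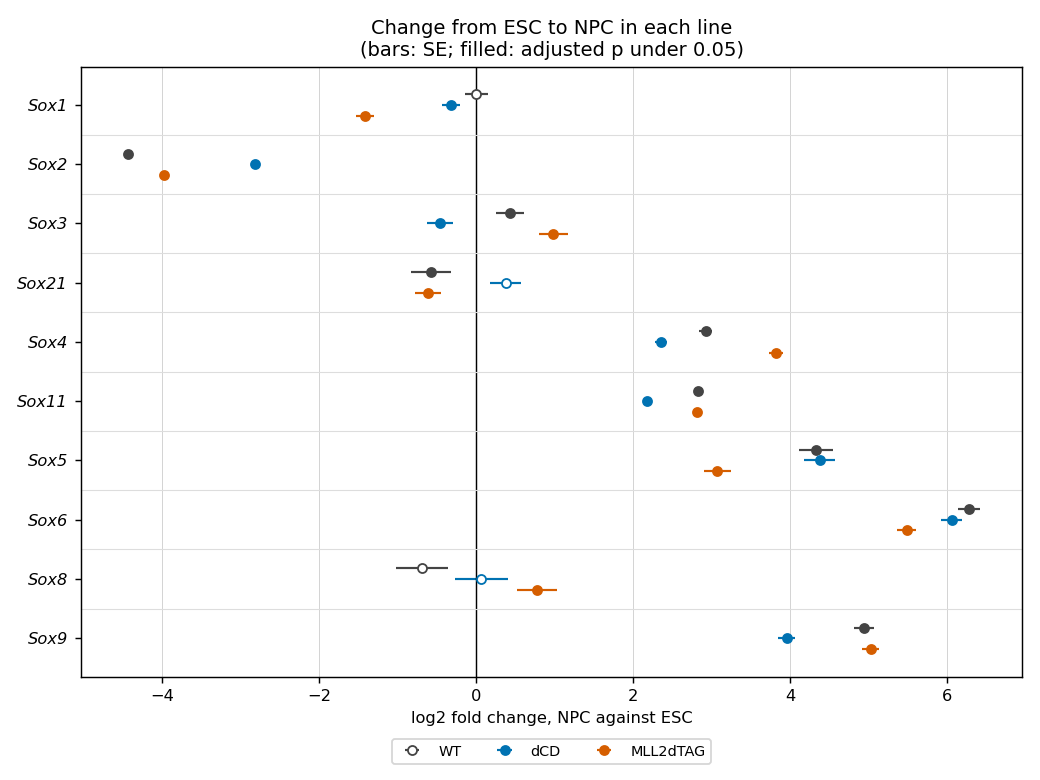
Log2 fold change from ESC to NPC of the 10 Sox transcripts in WT, dCD and MLL2dTAG; bars are SE and filled symbols have an edgeR adjusted p under 0.05. Sox2 lies between −4.43 and −2.82, Sox4, Sox5, Sox6, Sox9 and Sox11 lie above 2, and Sox1 lies near 0 in WT and at −1.42 in MLL2dTAG.

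Because SOXB1 proteins can stand in for one another in neural progenitors, their transcripts were also summed per length. The sum was 153 ± 8.0 CPM per kb (SD, n = 3) in WT ESC, 101 ± 6.6 in dCD ESC and 135 ± 4.8 in MLL2dTAG ESC. In NPC it was 9.07 ± 0.26 in WT, 16.7 ± 1.4 in dCD and 10.55 ± 0.30 in MLL2dTAG. Sox2 made up 98.9% of the sum in WT ESC and 77.1% in WT NPC, where Sox3 made up 15.8% and Sox1 7.07%. Sox3 held a smaller share in both other lines, 7.18% to 8.86% over the libraries of dCD NPC and 11.4% to 12.7% in MLL2dTAG NPC, against 14.9% to 16.4% in WT. Sox1 held a larger one, 8.23% to 10.01% and 7.87% to 9.50%, against 6.63% to 7.44%. These shares are descriptions and were not tested.

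**Figure D5:**
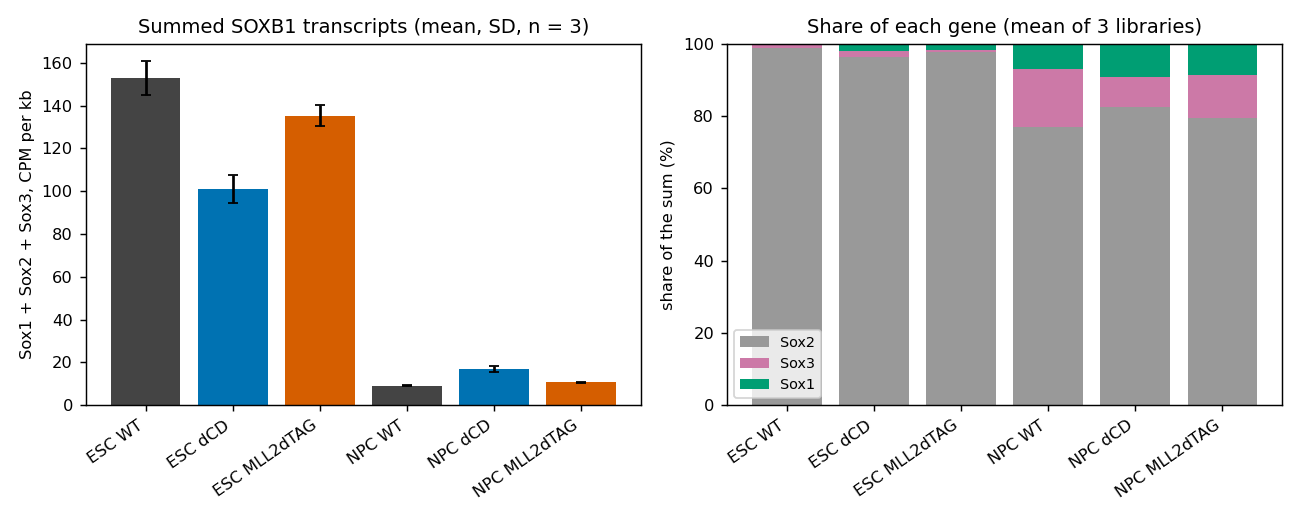
Summed SOXB1 transcripts per length (left, CPM per kb; bars are means and error bars SD of 3 libraries) and the share of Sox1, Sox2 and Sox3 in the sum (right, percent) in the 6 groups. The sum is 101 to 153 in ESC and 9.07 to 16.7 in NPC, and Sox2 makes up 77.1% to 82.7% of it in NPC.

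Of 10 other Sox genes, 8 had enough counts to be tested, and Sox14 and Sry did not, Sry having none. All 8 were called between WT NPC and WT ESC, 4 higher and 4 lower, against 79.5% of all genes called. The largest rise was that of Sox17, an endoderm factor, from 0.834 to 6.10 CPM (2.89 ± 0.22), and the largest fall was that of Sox15, from 26.7 to 0.499 CPM (−5.71 ± 0.13). Sox12, the remaining SOXC gene, rose from 85.8 to 185 CPM (1.11 ± 0.04), and Sox13, the remaining SOXD gene, fell from 40.4 to 18.9 CPM (−1.10 ± 0.06). Sox7 rose from 1.89 to 7.57 CPM (1.95 ± 0.17). Sox10, the remaining SOXE gene and a marker of neural crest and glia, fell from 104 counts over the 3 WT ESC libraries to 4 in WT NPC. Sox18 fell from 39 to 14 counts and Sox30 rose from 14 to 52 (1.47 ± 0.59).

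In MLL2dTAG NPC, 3 of these 8 were higher and 3 lower than in WT NPC, where 61.7% of all genes were called. Sox7, known from endoderm and endothelium, rose to 31.4, 36.1 and 35.4 CPM from 7.46 to 7.71 CPM in WT (2.18 ± 0.11, edgeR adjusted p = 1.7e-18), and Sox17 rose to 12.9 CPM (1.08 ± 0.14). Sox30 had 3 counts in MLL2dTAG NPC and 52 in WT NPC, a ratio of 19.4 with an exact 95% counting interval of 6.27 to 97.0. In dCD NPC none was higher and 3 were lower (53.5% of all genes called), with the largest fall in Sox17 (−0.76 ± 0.16). In dCD ESC 1 was lower (48.3%), Sox15 (−0.35 ± 0.08). In MLL2dTAG ESC (56.9% of all genes called) 2 were higher, led by Sox7 (1.41 ± 0.18), and 3 were lower, Sox30 among them at 3 counts against 14.

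SOXB1 proteins bind DNA beside POU and PAX factors. Of 6 such partners, 4 rose and 2 fell from WT ESC to WT NPC (79.5% of all genes called; median 4.27, all genes −0.04). Pou3f2 rose most, from 0.104 to 15.0 CPM (7.32 ± 0.24), and Pou5f1, the partner of Sox2 in pluripotent cells, fell most, from 555 to 1.01 CPM (−9.08 ± 0.10). In dCD 3 of 6 were higher in ESC (48.3% of all genes called) and 5 of 6 in NPC (53.5%) with none lower, and Pou3f1 led at both stages (1.06 ± 0.11 and 1.28 ± 0.13), going from 3.51 to 8.59 CPM in NPC. In MLL2dTAG 4 of 6 were higher in ESC (56.9% of all genes called), led by Pou3f2 (2.15 ± 0.55, on 40 counts against 7 in WT). In MLL2dTAG NPC 2 were higher and 2 lower (61.7%): Pou5f1 was higher, at 26.9 against 1.01 CPM (4.72 ± 0.12), and Pou3f4 lower, at 1.48 against 5.66 CPM (−1.94 ± 0.20). Pax6, which marks neural progenitors, was higher in MLL2dTAG ESC (2.03 ± 0.14) and lower in MLL2dTAG NPC (−0.56 ± 0.07).

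Among 8 progenitor genes, 7 rose and 1 fell from WT ESC to WT NPC, against 79.5% of all genes called. Cdh2, which encodes N-cadherin, rose most (4.30 ± 0.06, from 8.79 to 171 CPM), and Notch1 fell (−0.53 ± 0.05). In dCD NPC 4 of 8 were higher and 1 lower, against 53.5% of all genes called. Nes, the intermediate filament nestin, led the rises at 231 against 91.2 CPM (1.34 ± 0.05), and Prom1 was lower (−0.48 ± 0.05). In MLL2dTAG NPC (61.7% of all genes called) 2 were higher, led by Nes (0.77 ± 0.05), and 4 lower, led by Prom1, at 10.2 against 51.1 CPM (−2.32 ± 0.06). In dCD ESC 3 were higher and 3 lower (48.3% of all genes called), with Fabp7 (2.62 ± 0.47) and Notch1 (−0.91 ± 0.06) at the ends. In MLL2dTAG ESC 2 were higher and 3 lower (56.9%), with Vim (0.71 ± 0.03) and Prom1 (−1.88 ± 0.07) at the ends.

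Of 8 neuronal genes, 5 rose and 3 fell from WT ESC to WT NPC, against 79.5% of all genes called. Dcx, a microtubule protein of young neurons, rose from 0.0710 to 81.4 CPM, and Stmn2 fell from 327 to 25.7 CPM (−3.67 ± 0.06). Neurog2, a proneural factor, had no count in WT ESC and 454 counts in WT NPC, at least 113-fold higher against a floor of 3 counts over the group. In dCD NPC (53.5% of all genes called) 4 were higher, led by Stmn2 (1.87 ± 0.06), and 1 lower, Stmn1 (−0.50 ± 0.04). In MLL2dTAG NPC (61.7%) 3 were higher, led by Elavl3 (0.31 ± 0.07), and 4 lower, led by Neurog2 (−1.20 ± 0.21). In dCD ESC 2 were higher and 2 lower (48.3%), with Dcx (2.31 ± 0.73) and Elavl3 (−1.23 ± 0.08) at the ends. The Dcx change rests on few counts, 20 in dCD ESC against 4 in WT ESC. In MLL2dTAG ESC (56.9%) 2 were higher, led by Stmn1 (0.13 ± 0.04), and 4 lower, among them Dcx, which had no count there and 4 counts in WT.

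SOXD and SOXE factors act together in cartilage, and SOXE in glia. Of 8 cartilage and glial genes, 6 rose and 2 fell from WT ESC to WT NPC, against 79.5% of all genes called. Hapln1, a cartilage link protein, had 2 counts in WT ESC and 1147 in WT NPC, a ratio of 428 with an exact 95% counting interval of 118 to 3540. Acan, the cartilage proteoglycan aggrecan, fell from 13.8 to 0.433 CPM (−4.96 ± 0.22). In dCD NPC (53.5% of all genes called) none was higher and 3 were lower, led by Col2a1, at 37.9 against 85.9 CPM (−1.18 ± 0.06), where Sox5 and Sox6 were higher. In MLL2dTAG NPC (61.7%) 2 were higher, led by Pdgfra (1.35 ± 0.04), and 3 lower, led by Acan (−1.49 ± 0.46). Sox9 was higher there, and Col2a1, a known target of Sox9, stood at 40.3 CPM (−1.09 ± 0.06). Hapln1 went the other way, with a mean of 22.03 CPM in MLL2dTAG NPC against 10.94 CPM in WT NPC. Whether either change was tied to Sox9 was not tested. In dCD ESC 2 were higher and 1 lower (48.3%), with Nfia (0.57 ± 0.17) and Acan (−0.81 ± 0.15). In MLL2dTAG ESC 1 was higher and 2 lower (56.9%), with Pdgfra (1.36 ± 0.06) and Acan (−2.07 ± 0.17).

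The genes whose log2 CPM went most closely with each Sox gene over the 18 libraries were sought among the 11799 genes whose mean level reached 5 CPM. Pearson's r is a description here, since the 6 groups make up most of its spread. For Sox2 it was Pmm1 (r = 0.999), which also followed it within the 9 ESC libraries (0.966) and the 9 NPC libraries (0.982). For Sox11 it was Wnt4 (r = 0.998, and 0.938 within NPC), for Sox9 Plat (0.997 and 0.946) and for Sox5 Hoxb9 (0.995 and 0.857). Sox1 went with Myc (0.951 and 0.833), Sox21 with Lyn (0.955 and 0.955) and Sox8 with Gpat2 (0.894 and 0.972). For Sox4, Sox6 and Sox3 the closest genes, Nnat (0.998), Mid1 (0.995) and Mns1 (0.932), followed them less within NPC (0.678, 0.0905 and 0.196).

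Some exons of these genes are shared with other genes in the GENCODE M21 annotation of GRCm38, and the strand setting of the counting is not given in the sources used here. Of the exonic bases of Sox4, 54.6% lie opposite Gm26735, of Sox21 18.8% opposite Gm4675, of Sox8 10.6% opposite 2810468N07Rik and of Sox5 9.25% opposite Sox5os1, while 1.78% of Sox1 lie within Gm25239 on the same strand. Reads of those stretches may be from either gene. Sox2, Sox3, Sox6, Sox9 and Sox11 share no exonic base with another gene in that annotation.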

How the data were processed

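Polyadenylated RNA of 18 libraries was sequenced by the authors, who used the TruSeq Stranded mRNA kit per the labels' protocols. What the authors deposited is a table of whole-number read counts for each gene symbol, not normalized. HTSeq is named in the submitters' processing notes, while for these libraries the aligner, build and strand setting are not given in the sources used here. A further 18 columns of per-sample values could not be tied to 1 sample or group and were not used. Of the counts from 1 to 10, 60.8% to 66.5% were even, so an alternative halved all counts.

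Columns were assigned by name. Tests were run with edgeR 4.0.16 (limma 3.58.1, R 4.3.3). Low-count genes were dropped by filterByExpr by group (minimum count 10, minimum total 15), which left 20511 of 37417 symbols with a count, and scaling used TMM (factors 0.967 to 1.05). All 18 libraries entered 1 quasi-likelihood fit with a mean for each group (12 residual degrees of freedom, common dispersion 0.00161). Contrasts were tested with the two-sided F test, adjusted over all genes by Benjamini-Hochberg and called under 0.05. SE are the fitted change over the root of F, and 95% intervals from the moderated degrees of freedom. The steps were tested on simulated data. With totals of 19.4 to 46.04 M counts scaled by TMM, 1 CPM is 18.8 to 45.3 counts, and counting intervals and floors (3 counts) cover counting error only. Exon lengths, for CPM per kb, are from GENCODE M21, which held a model for 92.1% of symbols.

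The 10 genes and all lists were chosen with earlier results of these data known. All 10 genes were named, the other Sox genes where tested, for each list the called members with the largest rise and fall, and for likeness the closest genes by Pearson's r. Pax6, Col2a1, Dppa3, Neurog2 in WT and Hapln1 in MLL2dTAG NPC were added after their values were seen. Alternatives were other scalings, no filter, DESeq2 1.42.0, a fit of the compared groups alone, a replicate block, halved counts, offsets for GC content and length, and each library left out in turn.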

Additional observations from a re-analysis of the deposited data

Results flagged for a closer look

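For 12 changes the effect of a genotype differed between NPC and ESC by the interaction test of edgeR (adjusted p under 0.05). These are 6 of the 10 genes in each line, against 42.9% of all genes in dCD and 49.0% in MLL2dTAG. The values are the log2 change against WT in NPC minus that in ESC. In dCD they were 1.61 for Sox2, 0.95 for Sox21, −0.57 for Sox4, −0.65 for Sox11, −0.90 for Sox3 and −0.99 for Sox9. In MLL2dTAG they were 1.46 for Sox8, 0.89 for Sox4, 0.46 for Sox2, −0.79 for Sox6, −1.25 for Sox5 and −1.42 for Sox1. Sox2 had changes of opposite sign at the stages in both lines, each called on its own, and Sox11 in dCD did so too. For Sox5, Sox6 and Sox9 the ESC side rests on 24 to 116 counts per group. Without WT ESC replicate 2, the Sox6 difference in MLL2dTAG was −1.33, and it lost its call with halved counts and without WT ESC replicate 1 or 3 or MLL2dTAG ESC replicate 1 or 3 (−0.60 to −0.78). The Sox21 difference in dCD lost its call without WT ESC replicate 1 (0.78) or WT NPC replicate 2 (0.79).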

How the results depend on the processing

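The number of the 10 genes called, and of all genes called, stayed within 1.5 times the reported count in all 11 comparisons under all alternatives. Over the 8 other settings, 842 of 879 values of single genes stayed on their side of the threshold, 21 lost the call and 16 gained it. Without single libraries, 1937 of 1980 did, 33 lost it and 10 gained it. No called value changed sign. Of the 28 changes not called, 12 changed sign at least once, in 52 values in all, none of them past the threshold. The calls that changed came from 21 of 110 changes. Called values that moved by over 1.5 times, beside those given above, were Sox3 from dCD ESC to dCD NPC (−0.47, or −0.83 when GC content and length were offset, which were known for 96.0% of genes) and Sox11 between MLL2dTAG and dCD NPC (0.19, and 0.11 with library totals). The replicate block changed no call of the 10 genes (9 called in MLL2dTAG ESC and 6 in dCD NPC, for example) and moved the genes called in dCD ESC from 9909 to 9761. Same-numbered libraries did not deviate together over all tested genes (r −0.028 to 0.032, 0 of 27 pairs over 0.1). This correlation weighs all genes alike, so it cannot show whether the numbers pair the samples in a subset of genes. Counts were few for Sox5, Sox6 and Sox9 in WT ESC (24, 45 and 55 over 3 libraries) and for Sox8 and Sox21 in WT at both stages (65 to 82). The cause of these shifts was not tested.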
